A study of Mus musculus with 9 samples.

Results

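The genome positions described here are runs of 5 neighbouring CpGs that recur with the same spacing, with gaps of 10, 8, 5 and 31 bp from CpG to CpG, so that each run spans 54 bp. Methylation came from reduced representation bisulfite sequencing: MspI cuts DNA at CCGG, bisulfite converts the unmethylated cytosines of the selected fragments, and each read then calls a CpG as methylated or not. CpGs with at least 5 calls in 5 or more of the 9 libraries, 1342457 in all, were sorted by position. Among them 503 runs had these gaps, 232 in the order given and 271 in the mirror order. Of these, 481 had at least 10 calls over the run in each of the 8 samples, and they are called copies here. Mirror copies were turned round, so that place 1 is the CpG before the gap of 10 bp and place 5 the CpG after the gap of 31 bp. The copies were chosen by their spacing and their number of calls, not by their methylation, although the spacing was picked out with earlier results of these data known.

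The 22 runs left out had too few calls, with 8 or 9 in the lowest sample for 15 of them and fewer for the other 7. The 23 copies just inside the minimum, with 10 to 12 calls in their lowest sample, averaged 87.3% in NT embryos and 89.6% in fibroblasts. The 19 runs just outside it, with 6 to 9 calls, averaged 88.8% in NT embryos and 89.95% in fibroblasts.

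The NT embryos (label NTZy14, 4 samples) were made by placing a nucleus of a cultured fibroblast into an enucleated C57/B6 oocyte, with activation in strontium and cytochalasin B. The fibroblasts (label TT, 4 samples) came from adult males, grown from tail tips, the same kind of cell that donated the nuclei. Each stage held 2 samples labelled X1 and 2 labelled BDF1-CAST, and what X1 and the digits in NTZy14 stand for is not given in the sources used here. Lists of 4 values per stage are in the order of the sample numbers, 1 and 2 for BDF1-CAST and 3 and 4 for X1. The fibroblast sample BDF1-CAST 1 sums a library and its resequencing. Libraries held 25239364 to 30396273 calls in NT embryos and 35442175 to 41466097 in fibroblasts, and a copy had a median of 35 calls per NT embryo sample and 77 per fibroblast sample. Levels in NT embryos were therefore the less precise ones. A level pools the cells of a sample, so methylation lost by a few cells and a small loss in many cannot be told apart.

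In mammals a methyl group on the cytosine of a CpG is copied to the new DNA strand after replication by maintenance enzymes. After fertilisation the egg removes much of the methylation of the incoming genome, by oxidation of the methyl group and by dilution as cells divide. Some classes of interspersed repeats are known to keep more of their methylation than other sequence through this period. Copies of such a repeat carry their CpGs at like distances. The sequence and the annotation of the copies on the build of the files, mm9, were not used here, so no repeat class or gene is named. In RefSeq promoter windows of another build, GRCm38.p6, 0 of 32851 windows held the spacing. The number to be expected for the length searched was not worked out, so this is not read as avoidance of promoters.

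The copies were highly methylated in both stages, and their mean level differed little between them. Averaged over the 481 copies, methylation was 89.5% and 86.5% in X1 NT embryos and 86.1% and 87.5% in BDF1-CAST NT embryos. In fibroblasts it was 90.5% and 90.01% in the X1 samples and 89.6% and 87.9% in the BDF1-CAST samples. All 8 samples thus lay within a few points of each other, and the stages overlapped, because the highest NT embryo sample exceeded the lowest fibroblast sample. The mean was 87.4% ± 1.52 in NT embryos and 89.5% ± 1.10 in fibroblasts (SD, n = 4 each), a difference of -2.10 points, which was -2.23 points in X1 and -1.97 points in BDF1-CAST. Without any 1 sample it ran from -2.81 to -1.66 points. Copies in the given order differed by -2.50 points and mirror copies by -1.76 points.

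Other highly methylated runs differed more between the stages. Of the 446468 runs of 5 neighbouring CpGs within 100 bp that were tested, most had little methylation. The median level over all of them was 0.831% in NT embryos and 0.953% in fibroblasts. Shares of all runs given below therefore rest mainly on runs with little methylation to lose. The runs at 80% or more in fibroblasts numbered 52969. Their median level was 80.1% in NT embryos and 87.7% in fibroblasts, and the median difference was -6.51 points. For the 481 copies the medians were 87.8% in NT embryos and 89.6% in fibroblasts, and the median difference was -1.90 points. A fall of at least 10 points was seen in 5.20% of copies, that is 25, against 38.2% of the runs at 80% or more. A fall of at least 20 points was seen in 1 copy, or 0.208%, against 14.3% of those runs.

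**Figure D1:**
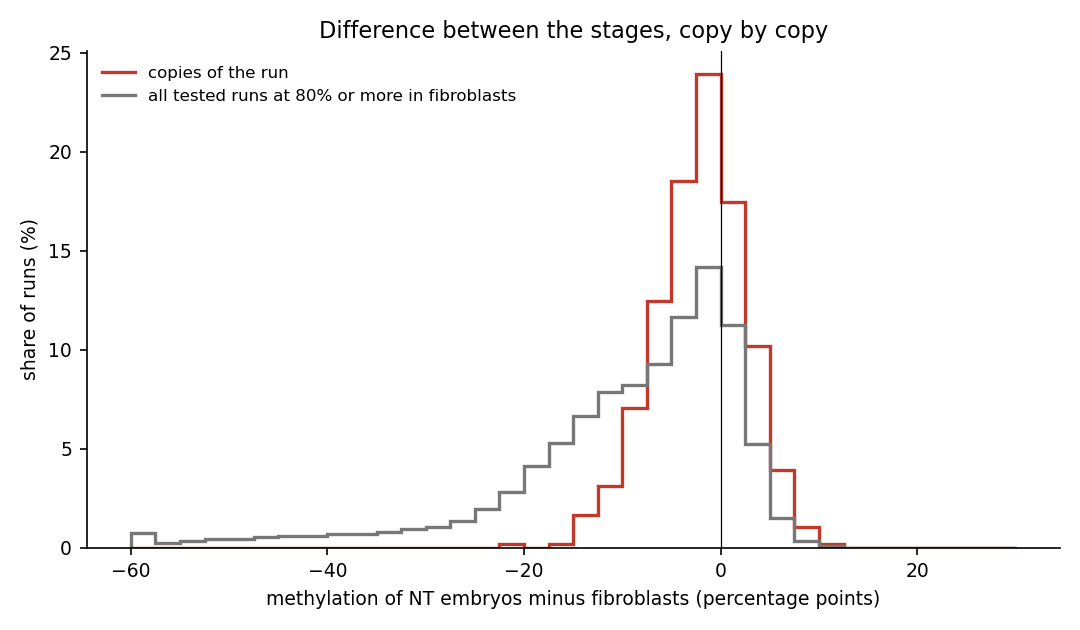
Difference in methylation between NT embryos and fibroblasts (x axis, percentage points, mean of 4 samples minus mean of 4 samples) against the share of runs in each bin (y axis, %), for the 481 copies (red) and for the 52969 tested runs at 80% or more in fibroblasts (grey). The copies lie mostly between -10.03 and 5.14 points, their 5th and 95th percentiles, and lack the long tail of falls shown by the grey line, whose end bins also hold values outside the range drawn.

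The same comparison was made with the starting level taken from fibroblasts of the other strain, so that the level used for the class and the difference measured did not share samples. In BDF1-CAST samples, the 277 copies at 90 to 100% in X1 fibroblasts had a median difference of -1.71 points, against -11.8 points for 17438 runs of that class. The 202 copies at 80 to 90% had a median difference of -1.996 points, against -8.87 points for 36207 runs. In X1 samples the gap was narrower. The 173 copies at 90 to 100% in BDF1-CAST fibroblasts had a median difference of -1.41 points, against -3.22 points for 12270 runs, and the 304 copies at 80 to 90% one of -1.57 points, against -1.96 points for 38727 runs. Copies had fewer calls than the runs at 80% or more, whose medians were 64 in NT embryos and 109 in fibroblasts, and the part of this in the result was not tested.

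No copy passed the test between the stages. The calls of every run were fitted with a quasi-binomial model that had terms for stage and strain, and a run was called at a Benjamini-Hochberg adjusted p under 0.05 with at least 20 points between the stage means. Of the 481 copies 0 were called in either direction, and the lowest adjusted p of a copy was 0.154. Only 1 copy differed by 20 points or more, so no other copy could be called. Among all runs tested 0.357% were called, 0.347% being lower in NT embryos and 0.0103% higher. Among the runs at 80% or more in fibroblasts 2.19% were called. The calls of the whole table rested on all the samples: without any 1 sample, 0 or 1 of all runs were called, the 1 without NT BDF1-CAST 2. At an unadjusted p under 0.05, the model found 36 copies, or 7.48%, against 15.6% of all runs and 39.9% of the runs at 80% or more in fibroblasts. Of the 36, 31 were lower in NT embryos, or 6.45% of copies. The shares were 11.7% of all runs and 39.3% of the runs at 80% or more. The other 5 copies were higher, or 1.04%, against 3.95% of all runs, most of which had little methylation. Of the 21145 runs at 80% or more with such a p, 20823 were lower in NT embryos. With limma on arcsine square root levels 0 copies were called, against 0.499% of all runs, and 57 had an unadjusted p under 0.05, or 11.9%, against 14.6% of all runs.

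Single copies spread on both sides of 0. The difference was negative in 323 copies and positive in 158, with quartiles at -4.84 and 0.831 points. It was positive in 32.8% of copies, against 36.3% of all runs tested and 18.4% of the runs at 80% or more in fibroblasts. In 18 copies, or 3.74%, every NT embryo sample lay below every fibroblast sample, against 5.23% of all runs tested. In 6 copies, or 1.25%, every NT embryo sample lay above every fibroblast sample, against 0.384% of all runs. None of them differed by the 20 points that a call asks for, so none could be called whatever its p.

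The lowest difference was that of the copy on chromosome 13 at 4338982 to 4339036. Its level was 57.1% and 60% in X1 NT embryos and 94.3% and 76.7% in BDF1-CAST NT embryos, against 90.6%, 96.4%, 95.3% and 90.8% in fibroblasts. Both X1 NT embryo samples were low, on 14 and 15 calls, while a BDF1-CAST NT embryo sample lay among the fibroblasts. The 95% Wilson intervals of the X1 NT embryo values ran from 32.6 to 78.6% and from 35.7 to 80.2%, for counting error only. The difference of -21.3 points had an adjusted p of 0.267 in the quasi-binomial model.

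The next lowest copies differed by -15.3 points (chromosome 1, 119604295 to 119604349), -14.4 points (chromosome 13, 11594628 to 11594682), -14.0 points (chromosome 1, 128321885 to 128321939) and -13.8 points (chromosome 7, 10334522 to 10334576). The last of these had 83.3% and 85% in X1 NT embryos and 63.9% and 79.4% in BDF1-CAST NT embryos, against 93.1%, 87.7%, 90.9% and 95.2% in fibroblasts. Its stages did not overlap, and its adjusted p of 0.154 in the quasi-binomial model was the lowest of all copies. Stages also did not overlap in the 2 copies on chromosome 1.

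The copy with the highest difference lay on chromosome 1 at 72177893 to 72177947. It had 100%, 97.8%, 95.2% and 100% in NT embryos, against 89.2%, 83.7%, 93.2% and 79.4% in fibroblasts. All 4 NT embryo samples thus lay above the 4 fibroblast samples, and the difference of 11.9 points had an adjusted p of 0.236 in the quasi-binomial model. It was followed by copies with differences of 9.83 points (chromosome 4, 73642770 to 73642824), 9.08 points (chromosome 5, 54841302 to 54841356), 8.46 points (chromosome 9, 27783400 to 27783454) and 8.27 points (chromosome 1, 151429958 to 151430012). Of these, only the copy on chromosome 5 had stages that did not overlap.

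The 5 places of the run had their own levels, and these kept nearly the same order in both stages. Place 4, the CpG 23 bp from place 1, was the highest in each of the 8 samples. It had 91.3%, 91.7%, 93.5% and 91.5% in NT embryos and 94.5%, 94.5%, 96.1% and 95.4% in fibroblasts, so that every NT embryo sample lay below every fibroblast sample. The mean was 92.0% ± 1.01 in NT embryos and 95.1% ± 0.772 in fibroblasts, a difference of -3.11 points.

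Place 5, 54 bp from place 1, also had stages that did not overlap. Its levels were 86.1%, 85.02%, 86.5% and 87.0% in NT embryos and 89.0%, 87.1%, 89.5% and 89.0% in fibroblasts. The mean was 86.2% ± 0.837 in NT embryos and 88.7% ± 1.04 in fibroblasts, a difference of -2.49 points. Places 3 and 1 overlapped between the stages. Place 3 averaged 88.6% ± 3.35 in NT embryos and 89.7% ± 1.31 in fibroblasts, a difference of -1.11 points, which ran from -2.72 points without NT X1 3 to -0.0936 points without NT BDF1-CAST 1.

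Place 1 was the place with the largest difference between the stage means. It had 78.3%, 83.7%, 85.9% and 78.3% in NT embryos and 85.2%, 83.1%, 87.8% and 87.5% in fibroblasts. NT BDF1-CAST 1 and NT X1 4 lay well below the fibroblasts, while the other 2 NT embryo samples lay among them. The mean was 81.5% ± 3.87 in NT embryos and 85.9% ± 2.19 in fibroblasts, a difference of -4.34 points.

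Place 2, 10 bp from place 1, was the only place with a higher mean in NT embryos. It had 84.3% and 81.7% in X1 NT embryos, 82.1% and 84.1% in BDF1-CAST NT embryos, 83.5% and 80.3% in X1 fibroblasts and 80.4% and 77.4% in BDF1-CAST fibroblasts. NT embryos lay above fibroblasts in BDF1-CAST, and the stages overlapped in X1. The mean was 83.1% ± 1.34 in NT embryos and 80.4% ± 2.51 in fibroblasts, a difference of 2.68 points. It was 1.67 points without TT BDF1-CAST 2 and 3.72 points without TT X1 3. In copies of the given order it was 1.55 points and in mirror copies 3.82 points. In the 16 copies with 5 calls at all places in all samples it turned to -0.661 points. Read within a sample, place 2 minus place 1 was 1.51 points ± 2.57 in NT embryos, positive in 3 of 4, and -5.50 points ± 1.33 in fibroblasts, negative in all 4, with no overlap between the stages (SD, n = 4 each). Places 1 and 2 were thus the lowest places in both stages, in the opposite order.

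**Figure D2:**
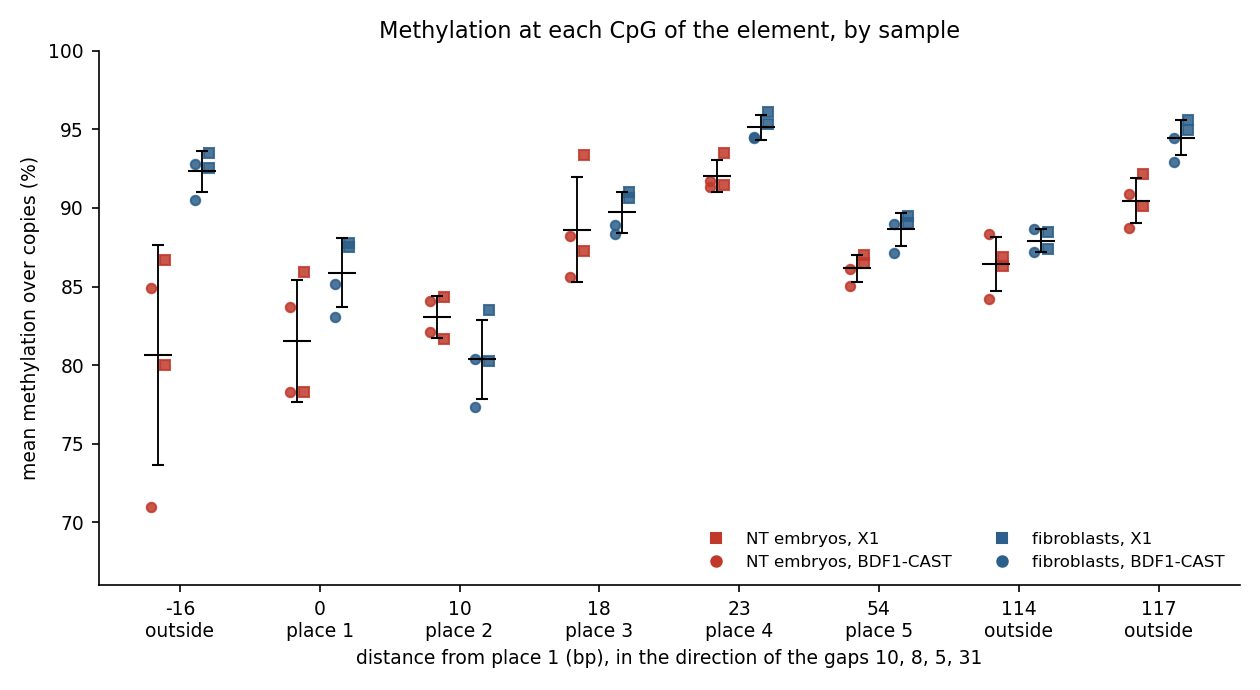
Mean methylation over copies (y axis, %, not starting at 0) at each CpG by its distance from place 1 in bp (x axis, ordered but not to scale), in NT embryos (red, left) and fibroblasts (blue, right), for X1 (squares) and BDF1-CAST (circles) samples. Each point is a sample and bars give the mean ± SD of 4 samples. Place 4 is the highest in all samples, place 2 is the place with the higher mean in NT embryos, and the CpG at -16 bp has the widest gap, at 80.7% in NT embryos and 92.3% in fibroblasts.

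Calls were not spread evenly over the places. The median number of calls at places 1, 2, 3, 4 and 5 was 5, 5, 5, 12 and 7 in NT embryos and 11, 11, 11, 25 and 18 in fibroblasts. Places 1 to 3 had equal numbers of calls in 56.8 to 97.3% of copies, depending on the sample, and in the median copy the calls at place 4 were 0.800 to 0.9375 times those of places 3 and 5 added up. Places 1 to 3 were therefore mostly read together, and their levels are not independent. A place counted in a copy only where it had 5 calls in that sample. The sample with the fewest such copies had 159 at places 1 to 3, 236 at place 5 and 412 at place 4.

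**Figure D3:**
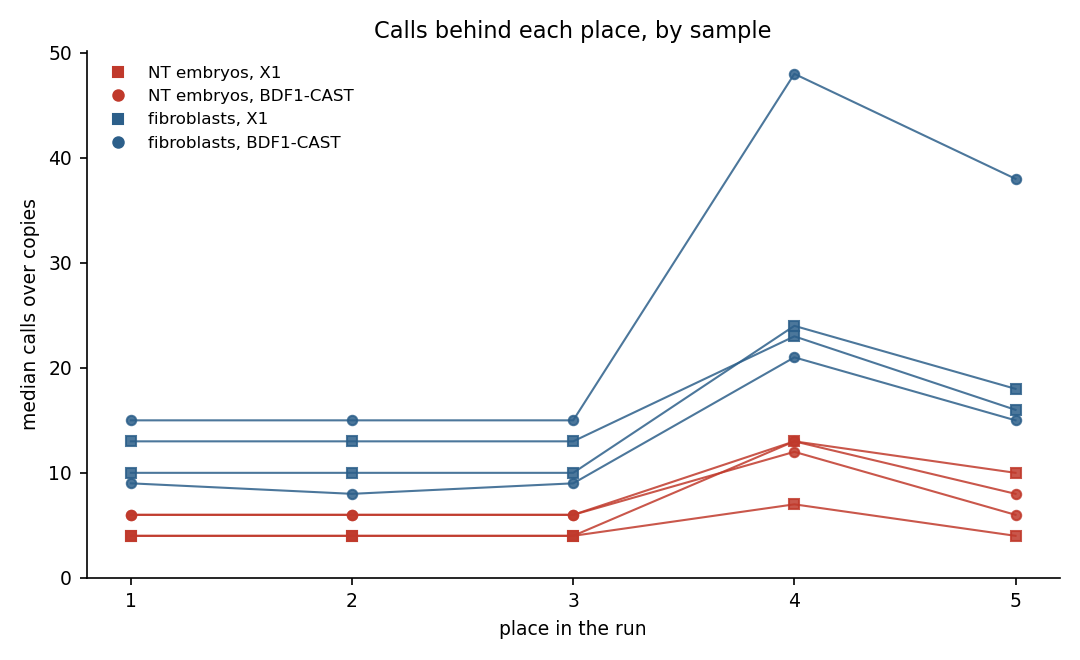
Median number of calls over the 481 copies (y axis) at each of the 5 places (x axis) in each sample, for NT embryos (red) and fibroblasts (blue), with X1 as squares and BDF1-CAST as circles. All samples have about the same number at places 1 to 3 and the most at place 4, where the medians run from 7 to 13 in NT embryos and from 21 to 48 in fibroblasts, the highest being the summed fibroblast sample.

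The copies were alike at each place. No place was under 20% in all 4 fibroblast samples in any copy with 5 calls in each of them, and 1 copy was under 60% at place 2. At place 4, 294 of 481 copies, or 61.1%, were at 90% or more in all 4 fibroblast samples. The corresponding counts were 62 of 475 at place 5, 36 of 431 at place 3, 16 of 436 at place 1 and 2 of 434 at place 2, and these shares depend on the calls as well as on the level. Across copies, levels of neighbouring places 1 and 2 were weakly related, with r from 0.183 to 0.454 in NT embryo samples and from 0.226 to 0.315 in fibroblast samples. For places 1 and 5, which are farthest apart, r ran from -0.0715 to -0.0298 in NT embryo samples and from -0.0666 to 0.106 in fibroblast samples. Places 1 and 2 share reads.

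Levels over the whole run spread more between copies in NT embryos than in fibroblasts. The SD between copies was 7.98, 6.69, 6.95 and 9.53 points in NT embryo samples and 3.25, 5.11, 4.24 and 4.24 points in fibroblast samples, with no overlap. The mean was 7.79 ± 1.29 points in NT embryos and 4.21 ± 0.759 points in fibroblasts (SD, n = 4 each). NT embryo samples had fewer calls per copy, with medians of 38, 40, 35 and 25, against 132, 62, 77 and 72 in fibroblasts. With the binomial counting variance taken off, the SD was 5.12 ± 1.10 points in NT embryos and 2.40 ± 0.477 points in fibroblasts, still with no overlap. Calls of 1 read are not independent, so this leaves some counting error in, and more of it in samples with fewer calls. Every NT embryo sample had a lower median number of calls than every fibroblast sample. Stage and depth therefore cannot be told apart in this spread.

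The share of copies at 80% or more was 79.6%, 87.7%, 92.9% and 78.2% in NT embryo samples, against 99.4%, 93.6%, 98.5% and 98.1% in fibroblast samples. Copies under 60% numbered 0, 1, 2 and 2 in NT embryo samples and 0 in each fibroblast sample. Copies at 100% numbered 19, 12, 29 and 47 in NT embryos, against 0, 3, 2 and 1 in fibroblasts. These counts depend on the number of calls per copy, which was lower in NT embryos and lowest in NT X1 4, so no order of levels is read from them. The upper quartile was 93.1% ± 1.02 in NT embryos and 92.3% ± 0.999 in fibroblasts, and the lower quartile 82.8% ± 2.04 in NT embryos and 86.9% ± 1.27 in fibroblasts. The lower quartile was lower in NT embryos and the upper quartile higher in the mean, with stages that overlapped at both. Quartiles also depend on the number of calls, and its part in them was not tested.

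**Figure D4:**
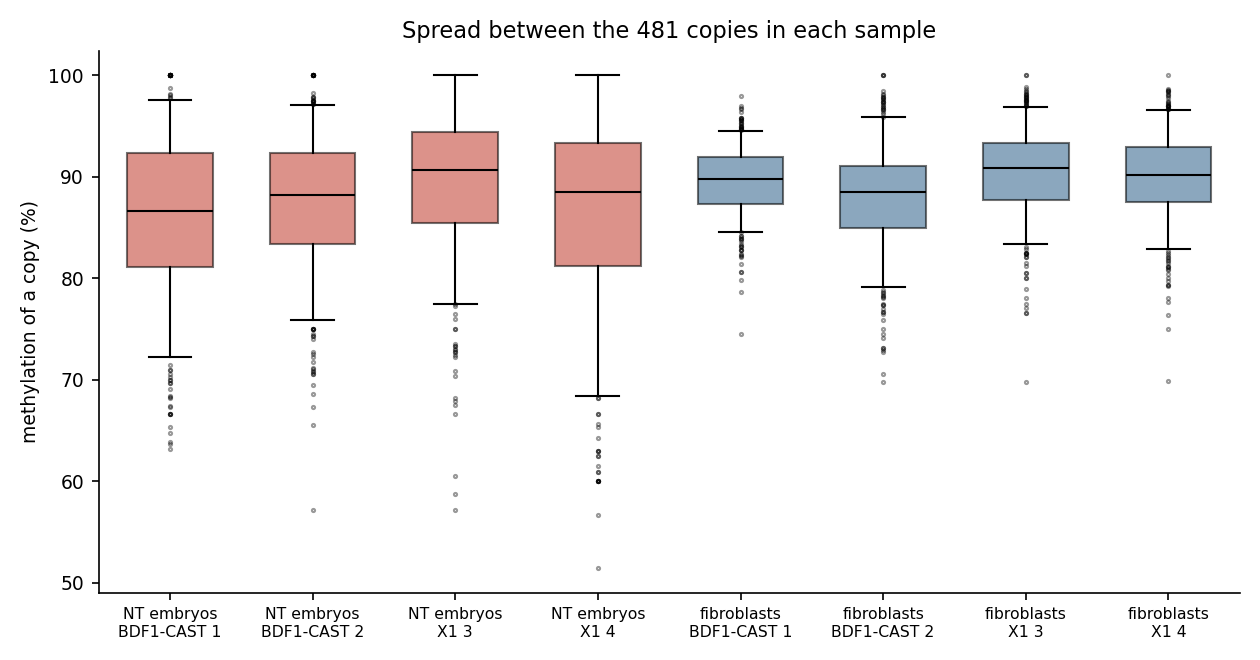
Methylation of each of the 481 copies (y axis, %, not starting at 0) in each sample (x axis), NT embryos in red on the left and fibroblasts in blue on the right. Boxes give the quartiles and the median, whiskers the 5th and 95th percentiles, and points the copies outside them. Boxes are taller in the 4 NT embryo samples, whose SD between copies is 6.69 to 9.53 points, than in the fibroblast samples, with 3.25 to 5.11 points. NT embryo samples also had fewer calls per copy.

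A copy measured as high in a sample was hardly higher than others as measured in another sample. Across the 481 copies, r between fibroblast samples was 0.0779 to 0.137, r between NT embryo samples was -0.0117 to 0.180, and r between NT embryo and fibroblast samples was -0.0047 to 0.142. Counting error lowers these r. Taking off its binomial part reduced the SD between copies from 7.79 to 5.12 points in NT embryos and from 4.21 to 2.40 points in fibroblasts. How much of the low r comes from counting error was not tested. Few copies stood out in fibroblasts. The highest means were those of the copies on chromosome 7 at 8664177 to 8664231, with 96.5% in NT embryos and 95.1% in fibroblasts, on chromosome 1 at 8147518 to 8147572, with 90.3% in NT embryos and 94.8% in fibroblasts, and on chromosome 6 at 57042501 to 57042555, with 90.2% in NT embryos and 94.7% in fibroblasts. Stages overlapped in all 3.

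The lowest mean in fibroblasts was that of the copy on chromosome 15 at 38541046 to 38541100, with 78.4% ± 6.13 in NT embryos and 75.7% ± 4.64 in fibroblasts. The next was that on chromosome 17 at 38485035 to 38485089, with 78.0% ± 17.7 in NT embryos and 77.0% ± 9.08 in fibroblasts. This copy was among the deepest, with 105 to 301 calls per sample. It held none of the CpGs at -16, 114 and 117 bp from place 1 described below, while 477 of 481 copies held that at 117 bp. Whether it belongs to the same longer pattern as the other copies was not tested. It had 85.1% and 51.4% in X1 NT embryos, 87.6% and 87.7% in BDF1-CAST NT embryos, 69.8% and 69.8% in X1 fibroblasts and 88.7% and 79.8% in BDF1-CAST fibroblasts. The 95% Wilson interval of NT X1 4 was 42.0 to 60.8%, and those of the other NT embryo samples began at 80.2% or higher. These intervals also take calls of 1 read as independent and can be too narrow.

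The X1 samples were slightly higher than the BDF1-CAST samples. The mean over copies was 88.0% in X1 and 86.8% in BDF1-CAST among NT embryos, a difference of 1.20 points, and 90.2% in X1 and 88.8% in BDF1-CAST among fibroblasts, a difference of 1.47 points. Over both stages the difference was 1.34 points, and it was 0.585 points without NT X1 3 and 2.10 points without NT X1 4. It was positive in 309 of 481 copies. The counts were 181241 of all 446468 runs tested and 41461 of the 52969 runs at 80% or more in fibroblasts. The median strain difference was 1.66 points over copies, -0.170 points over all runs and 3.91 points over the runs at 80% or more. At the 5 places the mean difference over copies was 2.30, 1.45, 2.81, 1.09 and 1.18 points, in order from place 1.

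No copy passed the test between the strains. In the quasi-binomial model 0 of 481 copies were called, against 0.00336% of all runs tested, 0.00157% being lower in X1 and 0.00179% higher, with a lowest adjusted p of 0.252. At an unadjusted p under 0.05 there were 22 copies, or 4.57%, against 14.9% of all runs. Of these 19 were higher in X1, or 3.95%, against 5.64% of all runs, and 3 were lower, or 0.624%, against 9.27%. With limma on arcsine square root levels 0 copies were called, against 0.0896% of all runs, and 49 had an unadjusted p under 0.05, or 10.2%, against 14.0% of all runs. The lowest adjusted p of a copy in limma was 0.0479, under the threshold, but no copy reached a strain difference of 20 points. For the product of stage and strain 0 copies were called, against 0% of all runs, with 13 at an unadjusted p under 0.05, or 2.70%, against 5.60% of all runs. With limma 0 copies were called for this product and 48 had an unadjusted p under 0.05, or 9.98%, against 0% called and 10.2% of all runs. X1 libraries covered fewer CpGs than BDF1-CAST libraries, and strain and this difference cannot be told apart.

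The copies with the largest strain differences in favour of X1 lay on chromosomes 15 and 5. That on chromosome 15 at 50458096 to 50458150 had 94.3% and 100% in X1 NT embryos, 77.4% and 82.4% in BDF1-CAST NT embryos, 95.8% and 95.1% in X1 fibroblasts and 91.7% and 81.5% in BDF1-CAST fibroblasts. All 4 X1 samples exceeded all 4 BDF1-CAST samples, by 13.1 points in the mean, with an adjusted p of 0.260 in the quasi-binomial model. Differences of 12.3 points (chromosome 15, 24982469 to 24982523) and 11.7 points (chromosome 5, 4515837 to 4515891) followed. The copies lowest in X1 were that on chromosome 17 given above, at -16.9 points, that on chromosome 13 at 4338982, at -13.7 points, and that on chromosome 14 at 86532613 to 86532667, at -11.1 points.

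The 5 CpGs belonged to a longer shared pattern. Within 500 bp on either side of the runs lay 1273 CpGs that met the same rule, at 93 distances from place 1. Only 3 of these distances were held by 20% of copies or more, and they took 832 of the 1273 CpGs. A CpG at 117 bp was present in 477 copies, or 99.2%. A CpG at 114 bp was present in 245 copies, or 50.9%, and all 245 also held the one at 117 bp. A CpG at -16 bp, before place 1, was present in 110 copies, or 22.9%. The next most frequent distance, -142 bp, was held by 33 copies. In 359 copies no CpG within 500 bp met the rule other than those at the 3 shared distances. CpGs without enough calls are not seen here, so these copies need not lack CpGs in their DNA.

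The CpG at 117 bp was highly methylated and lower in NT embryos. It had 88.7%, 90.9%, 92.1% and 90.2% in NT embryos and 94.5%, 92.95%, 95.6% and 94.9% in fibroblasts. No NT embryo sample reached the lowest fibroblast sample, with means of 90.5% ± 1.43 in NT embryos and 94.5% ± 1.12 in fibroblasts and a difference of -4.002 points. The CpG at 114 bp, 3 bp before it, averaged 86.4% ± 1.70 in NT embryos and 87.9% ± 0.725 in fibroblasts, a difference of -1.49 points with overlapping stages.

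The CpG at -16 bp had the largest difference of these 8 positions. It had 86.7% and 80.03% in X1 NT embryos, 71.0% and 84.9% in BDF1-CAST NT embryos, 93.5% and 92.5% in X1 fibroblasts and 92.8% and 90.5% in BDF1-CAST fibroblasts. The NT embryo samples differed widely among themselves, and all of them lay below all the fibroblast samples. The means were 80.7% ± 7.02 in NT embryos and 92.3% ± 1.30 in fibroblasts, a difference of -11.7 points. Place 1, the next CpG, differed by -4.34 points.

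Presence of a CpG depends on the coverage rule, so any call at these positions was also counted. At 114 bp the 236 copies without a CpG under the rule had no call in any library, and at 117 bp the 4 copies without one had none either. At -16 bp, by contrast, 470 of 481 copies had at least 1 call and 360 of those fell short of the rule. With calls summed over all copies, the level at -16 bp was 79.6% ± 6.72 in NT embryos and 91.7% ± 1.97 in fibroblasts, a difference of -12.2 points. Where the CpG met the rule the difference was -11.8 points, and in the other 371 copies -13.7 points. Summed in the same way, place 2 differed by 3.06 points and the CpG at 117 bp by -3.95 points.

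Levels over the 5 places were compared between copies with and without a CpG at 114 bp, and between copies whose CpG at -16 bp did or did not have enough calls, which is a split by coverage. The 245 copies with a CpG at 114 bp averaged 86.8% in NT embryos and 89.3% in fibroblasts, a difference of -2.51 points. The 236 copies without it averaged 88.0% in NT embryos and 89.7% in fibroblasts, a difference of -1.68 points. Copies whose CpG at -16 bp met the rule, 110 in number, averaged 89.3% in NT embryos and 89.97% in fibroblasts, a difference of -0.653 points. The other 371 copies averaged 86.8% in NT embryos and 89.4% in fibroblasts, a difference of -2.53 points. In each of these sets the stages overlapped.

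In the copies whose flanks had enough calls, the run was slightly lower than the CpGs within 500 bp in fibroblasts. On the side of place 1, 115 copies had CpGs within 500 bp with at least 10 calls in each sample. These flanking CpGs averaged 89.3% ± 1.28 in NT embryos and 92.2% ± 0.845 in fibroblasts. The run minus its flank was -0.103 points ± 1.12 in NT embryos and -2.25 points ± 0.365 in fibroblasts, with no overlap between the stages. The flank includes the CpG at -16 bp. In these 115 copies, selected by coverage, the run averaged 89.2% in NT embryos and 89.9% in fibroblasts. That difference of -0.769 points, against -2.10 points over all 481 copies, shows that they do not stand for the whole set. On the side of place 5, 479 copies had a CpG within 500 bp, but only 53 had the calls. There the flank averaged 88.4% ± 0.936 in NT embryos and 91.3% ± 0.536 in fibroblasts, and the run minus its flank was -2.06 points ± 1.68 in NT embryos and -2.17 points ± 0.860 in fibroblasts. With a flank of 1000 bp on that side these became 0.120 points in NT embryos and 3.53 points in fibroblasts. CpGs at other distances before the run, 435 in 122 copies, averaged 90.95% ± 1.74 in NT embryos and 92.5% ± 0.581 in fibroblasts, with overlapping stages.

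In 5 sets of runs that lacked 1 place or 1 end gap, mean levels were below those of the copies, without a test. These runs were matched by their other gaps alone and need not hold the rest of the shared pattern. Only 9 runs had 1 of the 4 gaps longer or shorter by 1 bp. Runs with 2 neighbouring gaps joined numbered 16 for an absent place 2, 23 for place 3 and 6 for place 4. With at least 10 calls in each sample, 16 runs without place 2 averaged 63.3% in NT embryos and 65.4% in fibroblasts, 22 without place 3 averaged 59.9% in NT embryos and 60.9% in fibroblasts, and 5 without place 4 averaged 0.576% in NT embryos and 0.719% in fibroblasts. Of 441 runs with gaps of 10, 8 and 5 bp and no CpG 31 bp after them, 288 had the calls and averaged 60.8% in NT embryos and 61.4% in fibroblasts. Of 33 runs with gaps of 8, 5 and 31 bp and no CpG 10 bp before them, 28 had the calls and averaged 47.3% in NT embryos and 47.1% in fibroblasts. Stages overlapped in all 5 sets.

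A narrower definition, chosen after these values had been seen, also asked for the rest of the shared pattern. Runs of the surrounding pattern that lacked 1 place but held the CpG at 117 bp, and no other CpG up to it except that at 114 bp, numbered 14 without place 1, 9 without place 2, 13 without place 3, 0 without place 4 and 21 without place 5. The absent place had no call in any library in 13, 7, 10 and 15 of these, for places 1, 2, 3 and 5. Those with at least 10 calls in each sample averaged 87.95% in NT embryos and 85.8% in fibroblasts for the 11 without place 1, and 86.3% in NT embryos and 88.0% in fibroblasts for the 9 without place 2. The 13 without place 3 averaged 91.4% in NT embryos and 89.99% in fibroblasts, and the 17 without place 5 averaged 87.4% in NT embryos and 87.96% in fibroblasts. Stages overlapped in all 4 sets. Full copies, read without place 1, 2, 3 or 5 in turn, averaged 88.4%, 88.0%, 87.2% and 87.9% in NT embryos. In fibroblasts they averaged 90.1%, 90.9%, 89.4% and 89.8%. The lower levels of the sets matched by gaps alone were thus not seen with this definition, without a test.

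The copies lay on all 19 autosomes and X, far from one another. The closest pair lay 4093 bp apart. Chromosome 1 held 46 copies, or 9.56%, against 5.98% of all runs tested and 7.29% of the runs at 80% or more in fibroblasts. Chromosome 11 held 19, or 3.95%, against 7.52% of all runs but 3.37% of those runs. The X chromosome held 30, or 6.24%, against 2.54% of all runs and 9.03% of those runs.

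Copies on X had levels close to those on the autosomes. On X they had 84.9%, 87.0%, 89.8% and 84.0% in NT embryos and 89.3%, 88.2%, 91.4% and 91.1% in fibroblasts, with overlapping stages. The mean on X was 86.4% ± 2.58 in NT embryos and 90.02% ± 1.51 in fibroblasts, a difference of -3.58 points, and that of the 451 autosomal copies was 87.5% ± 1.45 in NT embryos and 89.5% ± 1.08 in fibroblasts, a difference of -2.003 points. The difference between X and autosomes was not tested. The 5 copies nearest the start of X, at 3266015, 4774483, 11809799, 30640741 and 31308590, differed by -4.17, 1.63, 1.20, 3.05 and -5.62 points in that order, and none had stages without overlap.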

How the data were processed

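Per library the authors deposited a table of CpGs with the counts of calls and of methylated calls. The submitters' processing notes name build mm9. Aligner and caller: not given in the sources used here. The treatment of multiply mapping reads, which could change levels at repeated sequence, is likewise not stated there, and its part in the results was not tested. Positions are printed as the files give them. Fibroblast library 1 and its resequencing were summed.

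The level of a run is its methylated calls over all its calls. Each run of 5 neighbouring CpGs within 100 bp with at least 10 calls in each sample was given a quasi-binomial logistic fit on stage and strain. Dispersions were moderated by the squeezeVar function (limma 3.58.1, R 4.3.3) with a floor of 1, and F test p-values were adjusted by Benjamini-Hochberg over all 446468 runs. Other steps used Python 3.11.15, numpy 2.4.6, pandas 2.3.3 and scipy 1.17.1. Means over copies and levels of places are descriptions, without tests.

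The copies, lists and tests were chosen with earlier results of these data known. Copies named are the 5 lowest and 5 highest stage differences, the 3 highest and 3 lowest fibroblast means, 3 strain differences in each direction and the 5 lowest positions on X. Whether samples are separate animals or cultures is not stated, so p-values speak of the variation among these samples only, possibly technical. No molecular identifiers are described, so intervals cover counting error only. The RefSeq promoter sequences of GRCm38.p6 served only for the search of the spacing.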

Additional observations from a re-analysis of the deposited data

Results flagged for a closer look

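In 98 groups of 4 samples at the named copies and the sets of copies, 7 had a sample apart from the other 3. For independent groups not chosen by their values, 1 in 20, or 4.9, would be the number chance gives. These sets of copies overlap, and most named copies were picked for extreme values, so 7 cannot be read against 4.9. The largest gap was at the copy on chromosome 17 at 38485035, which lacks the CpG at 117 bp held by nearly all copies. There NT X1 4 had 51.4% on 105 calls and the other NT embryo samples had 85.1 to 87.7%. NT BDF1-CAST 2 had 81.6% on 38 calls at the copy on chromosome 9 at 27783400, against 93.9 to 95.5% in the other NT embryo samples. NT BDF1-CAST 1 had 73.6% on 53 calls at the copy on X at 31308590, against 87.1 to 89.7% in the others.

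Among fibroblasts, the copies whose CpG at -16 bp met the rule had a run level of 88.4% in TT BDF1-CAST 2, against 90.4 to 90.6% in the other 3 samples. TT X1 4 had 77.6% on 76 calls at the copy on chromosome 4 at 73642770, against 82.1 to 82.5%. At the copy on chromosome 14 at 86532613, TT BDF1-CAST 2 had 81.6% on 49 calls, against 88.6 to 89.7%. At the copy on X at 30640741, TT X1 3 had 97.3% on 74 calls, against 89.2 to 90.1%.

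In 2 of 49 comparisons of the strains, both NT embryo samples of X1 lay below their strain's fibroblast mean and both of BDF1-CAST above theirs. At the copy on chromosome 14 at 86532613 the difference between stages was -22.5 points in X1, on 15 and 20 calls in NT embryos, and 7.56 points in BDF1-CAST, so that the strains differed by -30.0 points. At the copy on X at 4774483 it was -2.78 points in X1 and 6.05 points in BDF1-CAST, a gap of -8.84 points, with X1 samples of the stages that overlapped, at 88.9% and 93.0% in NT embryos and 96.1% and 91.4% in fibroblasts. In the quasi-binomial model over all runs the adjusted p for the product of stage and strain was 0.810 at the copy on chromosome 14 and 0.830 at that on X, and the gaps in points were not tested.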

How the results depend on the processing

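Of 259 values recomputed under other settings, 245 stayed within the spread between samples and 14 moved. Part of the 245 could not move, so the tally is no measure of stability. Asking for no other copy within 1000 bp kept all 481 copies, and NT embryo spreads do not depend on fibroblast samples. Copies called stayed at 0 in all 3 tests under every setting run. For the product of stage and strain 0 of all runs were called in every setting. For strain 0 of all runs were called without any 1 sample. Such counts of copies say nothing of the copies. With CpGs that had 5 calls in all 9 libraries only 10 copies were left, and the strain difference was -1.44 points, places 1, 2, 4 and 5 differed between the stages by -2.25, 0.181, -1.61 and -0.962 points, the SD between copies in fibroblasts 5.99 points, and the run minus its flank before it 3.41 points in NT embryos and -0.385 points in fibroblasts. With 5 calls at all places in all samples 16 copies were left, and places 2, 4 and 5 gave -0.661, -2.11 and -0.419 points, so the higher level of place 2 in NT embryos was not seen in those copies and nearly gone in the 10. The spread between samples of the place 2 and place 1 differences, 2.72 and 4.52 points, is about as large as the differences, so these count as within it. Weighting by calls gave -2.62 points for the run minus its flank before it in fibroblasts, and a flank of 200 bp gave -1.56 points. A flank of 1000 bp gave 0.120 points in NT embryos and 3.53 points in fibroblasts after the run. Without 1 sample each in turn, place 5 ran from -3.00 to -2.09 points and place 2 from 1.67 to 3.72 points. The causes were not tested, beyond the smaller numbers of copies.

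Samples with the same number did not deviate together (r = -0.0467 for numbers 1 and 2 and 0.0364 for 3 and 4, over 446468 runs). With the replicate block the mean stage difference is -2.10 points by construction, because each block holds 1 sample of each stage. In the quasi-binomial model with this block 0 copies were called. An unadjusted p under 0.05 was found in 13 copies, or 2.70%, against 10.0% of all runs. The block left 0 of all 446468 runs called, so it says nothing of the copies. Depth limits single copies, which rest on a median of 35 calls in NT embryos, and levels at places 1 to 3, which rest on a median of 5.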
